A study of Chionodraco hamatus and Gymnodraco acuticeps and Trematomus bernacchii with 9 samples.

Results

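The head kidney of the icefish Chionodraco hamatus was compared with that of the red-blooded notothenioid Trematomus bernacchii, using 6 of the 9 RNA libraries of the study, 3 per species. The libraries were chosen by their species label alone. The third species of the study, Gymnodraco acuticeps, entered only an alternative fit. Both groups were untreated as far as the labels say, and the single labelled difference between them is the species. The labels do not say whether replicates came from separate animals, so p-values measure the spread between these samples, which may be technical. Differences of library batch or of sequence divergence from the counted entries go with the species and cannot be told apart from it.

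Icefishes are known for lacking hemoglobin and mature red cells, whereas T. bernacchii carries both. The teleost head kidney is the blood-forming organ of these fishes, where erythroid and myeloid cells mature in a stromal network, and it also holds the steroid-making interrenal cells and the catecholamine-making chromaffin cells. In erythroid cells the transcription factors KLF1, TAL1 and LMO2 drive the globin genes, heme is made from glycine by a chain of enzymes that begins with an erythroid aminolevulinate synthase, and iron enters through the transferrin receptor. TGF-beta and BMP ligands signal through paired receptors to SMAD proteins, which enter the nucleus, and members of this family are known in mammals to restrain or to promote erythroid maturation.

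Each row of the count table is a UniProt entry name, made of a protein mnemonic and an organism code, so that 1 protein can be counted on several rows. The table has 12653 rows under 11291 mnemonics, and 1275 mnemonics have 2 or more rows. Every comparison was made on the rows and again after rows of 1 mnemonic were summed, and values below are for summed mnemonics unless a row is named. Levels are CPM, counts scaled to library size with TMM factors. They are not divided by length, so they compare libraries and not proteins. A fold change is C. hamatus over T. bernacchii. A difference was called where edgeR's quasi-likelihood test gave a p under 0.05 after Benjamini-Hochberg adjustment over all features. Rows of gene families and of near-identical copies may share reads and are uncertain, and a row at 0 says that no read was assigned to that entry, not that the gene was silent. The genes named are those that a stated rule picked, and other list members are named after their values were seen. In bulk tissue, fewer cells of a type and less RNA per cell cannot be told apart.

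Total counts ran from 2501922 to 5172770 in C. hamatus and from 2600100 to 11861252 in T. bernacchii. Spearman correlations across mnemonics were 0.782 to 0.837 within C. hamatus, 0.818 to 0.937 within T. bernacchii and 0.393 to 0.563 between the species. Some libraries stood apart in their cell type markers. Icefish replicate 3 alone held the interrenal gene STAR, the cholesterol carrier of steroid synthesis, at 17156 CPM, against 0 in the other icefish libraries and at most 1.77 CPM in T. bernacchii. Summed interrenal markers were 55.04, 137 and 28277 CPM in C. hamatus and 35.4 to 55.2 CPM in T. bernacchii. Summed chromaffin markers were 215, 11239 and 5248 CPM in C. hamatus and 154 to 647 CPM in T. bernacchii. Replicate 2 of both species was high in granulocyte markers, at 13313 and 12523 CPM, against 2045 to 2736 CPM in the other 4 libraries. Ribosomal protein mnemonics summed to 383664 CPM in icefish replicate 1 and to 116598 to 221813 CPM in the other 5. Because replicates 2 and 3 of C. hamatus carried the interrenal or chromaffin markers, the counts were also made with replicate 1 as the only icefish library, a choice made after seeing the data. In that fit the lone library is assumed to vary like the T. bernacchii libraries.

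**Figure D1:**
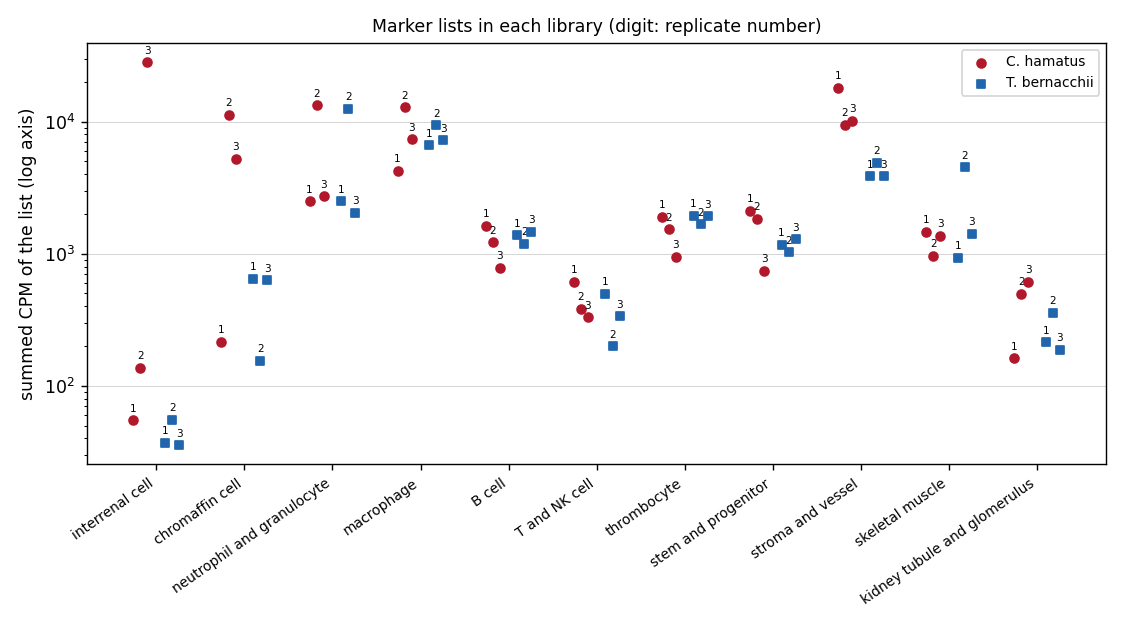
Summed CPM of the 11 marker lists (log axis) in each library, with red circles for C. hamatus, blue squares for T. bernacchii and the digit giving the replicate number. Icefish replicate 3 stands at 28277 CPM for interrenal markers, replicate 2 of both species is highest for granulocyte markers, and the 3 C. hamatus libraries lie above the 3 T. bernacchii libraries for stroma and vessel markers.

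Over all features, more calls were higher than lower in the icefish. Of 8086 rows tested, 1179 were called higher (14.6%) and 901 lower (11.1%) in C. hamatus. Of 7690 summed mnemonics tested, 1088 were called higher (14.1%) and 803 lower (10.4%). The median log2 fold change over all summed mnemonics was 0.07. The share of a gene list that was called is read against these percentages. Features with no read, or only a few, in 1 species entered the test through the other species alone. The direction of such a call was fixed in advance, and the list counts below include such features. The libraries of the species did not overlap for 1082 of the 1088 called higher and 800 of the 803 called lower. Separation of the groups therefore adds little to a call. Among mnemonics with at least 10 counts in each species, the 654 called higher had a median fold of 12.9 and none under 2.57, and the 458 called lower had a median fold of 7.16 and none under 2.73. Differences smaller than those were not called with 3 libraries per species, where the median coefficient of variation was 45.3% in C. hamatus and 37.4% in T. bernacchii among mnemonics of at least 10 CPM. With icefish replicate 1 as the only icefish library, the median log2 fold change was -0.29. That fit tested 8487 mnemonics and called a far smaller share of them, with its totals given in the closing section. The list counts given for it below are therefore not to be read against 14.1% and 10.4%. Leaving out T. bernacchii replicate 1 gave 708 summed mnemonics higher and 551 lower.

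**Figure D2:**
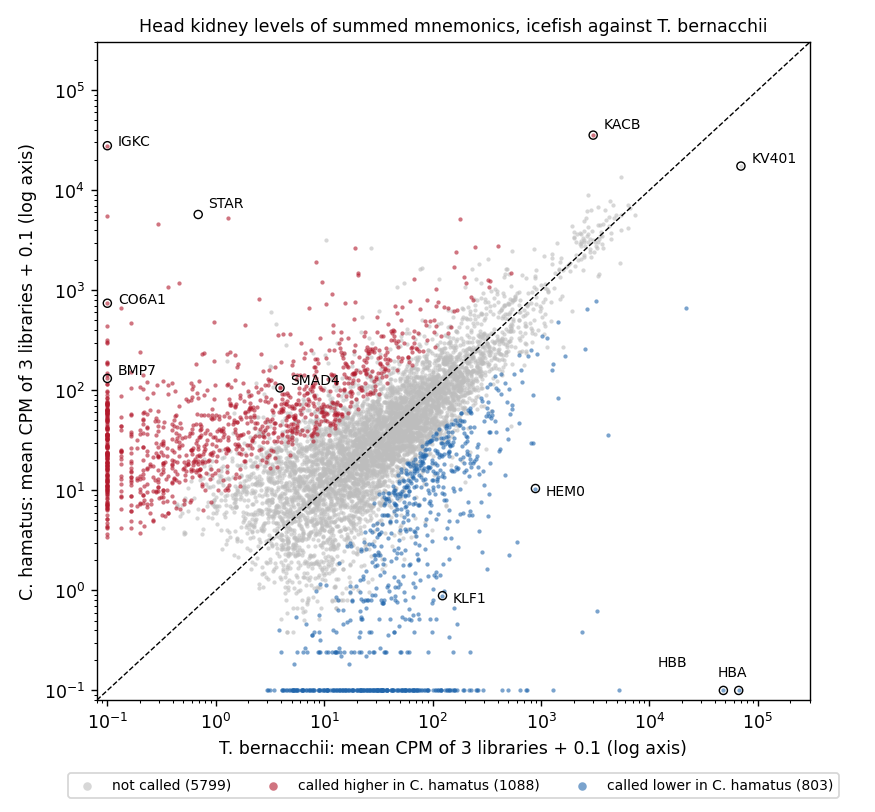
Mean CPM of each tested summed mnemonic over 3 libraries, T. bernacchii on the horizontal and C. hamatus on the vertical axis, both log axes after adding 0.1 CPM, with red points called higher and blue points called lower in C. hamatus and STAR added although it was not tested. The globins HBA and HBB lie at the lower right, at 0 in C. hamatus, and many called mnemonics lie on the left and bottom edges, where 1 species had no count.

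The globins separated the species without overlap, and the red-blooded species held nearly every read. Alpha globin, HBA, was counted on a single row whose organism code is that of T. bernacchii itself. It held 76812, 35488 and 87450.4 CPM in the T. bernacchii libraries and no read in any C. hamatus library. Against a floor of 3 counts per library, a mean of 0.814 CPM in C. hamatus, this is at least 81815-fold lower. Beta globin, HBB, held 31440.0, 28333 and 84459.7 CPM in T. bernacchii and 0 in C. hamatus, at least 59076-fold lower, or 36723-fold without T. bernacchii replicate 3. HBAD, an alpha-type globin, held 62.7, 103 and 23.2 CPM against 0, at least 77.2-fold lower. The fourth mnemonic, HBB2, held 3249, 3439.9 and 3259 CPM in T. bernacchii and 0.491, 1.07 and 0 CPM in C. hamatus. The icefish reads of HBB2 were 5 in all, and they lay on a row, coded PSEUR, that had no read in T. bernacchii, whereas the T. bernacchii reads lay on a row coded GOBGI with no icefish read. All 4 tested globins were called lower. They entered the test through the T. bernacchii libraries alone, so the direction of these calls adds nothing to the levels above. Together the globins took 111564, 67363 and 175193 CPM of the T. bernacchii libraries.

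The erythroid first step of heme synthesis was lower in the icefish, while the general first step was not called. The later enzymes called lower were HEM4, which had no icefish read, and HEM6 and PPOX, by narrow margins. HEM4 and MFRN1 entered the test through the T. bernacchii libraries alone, so the direction of their calls was fixed in advance. Of 18 tested members 7 (38.9%) were called lower and 1 (5.56%) higher, beside 10.4% and 14.1% of all mnemonics. The median log2 fold change was -1.27. HEM0, the erythroid 5-aminolevulinate synthase, held 13.02, 7.88 and 10.1 CPM in C. hamatus and 774, 1244 and 647 CPM in T. bernacchii. The groups were far apart, and the log2 ratio was -6.42 with SE 0.58 (adjusted p = 0.00178). HEM1, the synthase isozyme of other cells, held 178, 643 and 577 CPM in C. hamatus and 141, 231 and 178 CPM in T. bernacchii. Its libraries overlapped and the difference missed the threshold (1.35 on the log2 scale, SE 0.57, adjusted p = 0.124). HEM4, uroporphyrinogen-III synthase, held 207, 66.4 and 133 CPM in T. bernacchii and no read in C. hamatus, at least 167-fold lower. HEM2, delta-aminolevulinic acid dehydratase, missed the threshold at a log2 fold change of -1.52 (adjusted p = 0.077), although its libraries did not overlap.

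The transporters and later enzymes of the heme list were called in both directions. MFRN1, mitoferrin-1, the iron importer of the inner membrane in red cell precursors, had 2 reads in all of C. hamatus and 9.36, 62.6 and 5.69 CPM in T. bernacchii, a ratio of 95.4 (95% exact interval 26.2 to 792). T. bernacchii replicate 2 led it, and the ratio was 39.5 without that library, 192 without T. bernacchii replicate 3, 63.5 without icefish replicate 1 and a bound of 28.6 without icefish replicate 3, which held both icefish reads. TM14C, a porphyrin transporter, had a log2 fold change of -3.23 (adjusted p = 0.0152), and its call was lost without icefish replicate 2 (-3.01, adjusted p = 0.0542). HEM6, coproporphyrinogen oxidase, was called by a narrow margin (-1.62, adjusted p = 0.047), and leaving out any 1 of the 6 libraries ended that call, at adjusted p = 0.0534 to 0.143. PPOX, protoporphyrinogen oxidase, was equally marginal (-1.83, adjusted p = 0.05 after rounding up), and its call was lost without icefish replicate 2 (-1.57) or 3 (-1.70) and without T. bernacchii replicate 1 (-1.91) or 3 (-1.55). FLVC2, a membrane transporter of the FLVCR family, was the member called higher, at 6.39, 3.58 and 15.95 CPM against 2 reads in T. bernacchii, a ratio of 81.9 (22.1 to 684), which was 44.5 without icefish replicate 3 and a bound of 9.62 without T. bernacchii replicate 3. The other 8 tested members, HEM3, MFRN2, ABCB6, S238B, S2539, CLPX, HEBP1 and HEBP2, were not called. The heme list summed to 666, 1025 and 1582 CPM in C. hamatus and to 2857, 2419 and 2678 CPM in T. bernacchii. Those sums did not overlap, and an exact permutation test of 3 against 3 gives 0.1, the smallest p it allows. Without icefish replicate 2 the list had 4 members lower and 2 higher, and without T. bernacchii replicate 2 it had 6 lower and 3 higher. With icefish replicate 1 as the only icefish library 2 members of 19 tested were called lower and 0 higher.

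Of 15 erythroid regulators tested, 4 (26.7%) were called lower in C. hamatus and 0 higher, beside 10.4% and 14.1% of all mnemonics. The median log2 fold change of the list was -0.89. KLF1 and TAL1, with few icefish reads, entered the test through the T. bernacchii libraries alone. The direction of their calls was thus fixed in advance and adds nothing to the levels below. KLF1, the erythroid Krueppel-like factor that switches on adult globin, held 0.737, 0.358 and 1.26 CPM in C. hamatus and 176, 152 and 42.1 CPM in T. bernacchii (log2 fold change -7.18, SE 0.84, adjusted p = 0.00206). TAL1, a basic helix-loop-helix factor needed for blood formation, held 0.983, 0 and 0.420 CPM against 87.1, 40.98 and 68.4 CPM (-6.97, SE 0.91, adjusted p = 0.0027), and -7.93 without icefish replicate 1. NFE2, a leucine-zipper factor of erythroid cells and thrombocytes, held 6.63, 6.81 and 2.94 CPM against 284, 208 and 486 CPM (-5.90, SE 0.64, adjusted p = 0.00189). In all 3 the lowest T. bernacchii library was well above the highest C. hamatus library, and nearly all calls were free of overlap. RBTN2, the bridging protein LMO2, differed less, at 39.6, 18.99 and 15.1 CPM against 244, 183 and 195 CPM (-3.08, SE 0.53, adjusted p = 0.00603). EPOR, the erythropoietin receptor, was low in both species, at 1.72 to 7.52 CPM and 9.62 to 33.2 CPM, and was not called (-1.97, adjusted p = 0.146). GFI1B, a repressor of erythroid and thrombocyte precursors, was 14.5, 1.79 and 0.420 CPM against 67.4, 50.1 and 36.9 CPM and missed the threshold (-3.19, adjusted p = 0.0703). E2AK1, the heme-regulated kinase, was not called either (-2.90, adjusted p = 0.127). The cofactor LDB1 (1.02, adjusted p = 0.288) and the kinase JAK2 (0.55, adjusted p = 0.555) overlapped between the species, and STA5B, BACH1, SC23B, KLF3, LYN and SMAD5 were also not called. RBTN2 lost its call only when icefish replicate 1 stood alone (adjusted p = 0.0791), and 3 of 16 members were then called lower.

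**Figure D3:**
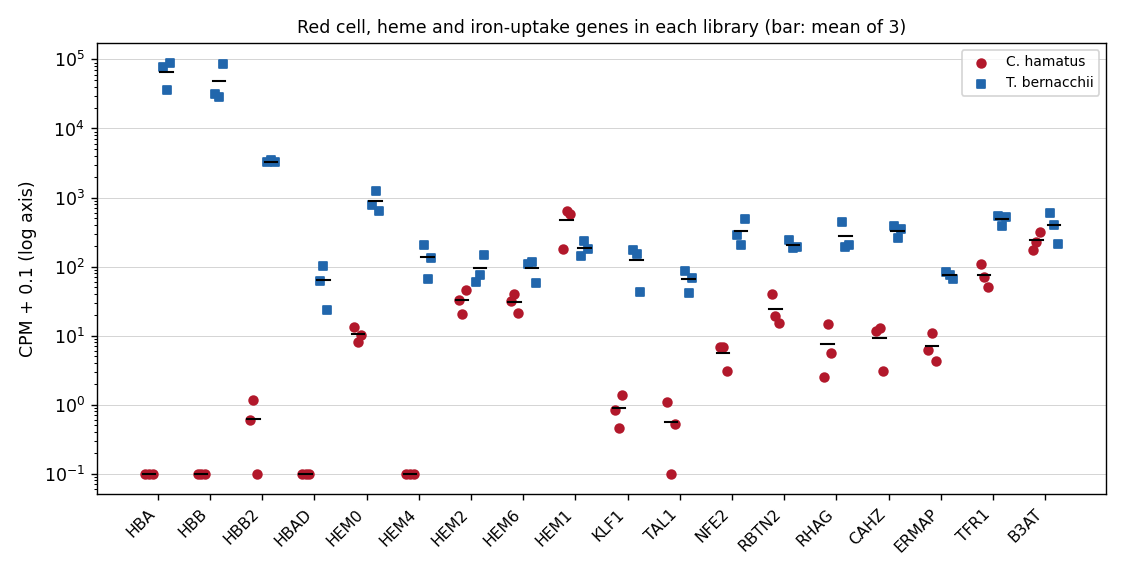
CPM of 18 globin, heme, erythroid and red cell mnemonics in each library (log axis after adding 0.1 CPM), with red circles for C. hamatus, blue squares for T. bernacchii and bars for the mean of 3. The C. hamatus libraries lie below every T. bernacchii library for the globins, HEM0, KLF1, TAL1 and NFE2, whereas HEM1 and B3AT overlap.

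Proteins of the red cell membrane and interior were also lower in C. hamatus, at 6 (42.9%) of 14 tested against 1 (7.14%) higher. The shares over all mnemonics were 10.4% and 14.1%, and the list's median log2 fold change was -2.99. CATA and ADDB entered the test through the T. bernacchii libraries alone, so the direction of their calls was fixed in advance. RHAG, the ammonia channel of the Rh complex, held 2.46, 14.7 and 5.46 CPM against 438, 189.6 and 202 CPM (-5.21, SE 0.81, adjusted p = 0.00439), and -6.11 without icefish replicate 2. CAHZ, a carbonic anhydrase named from zebrafish, held 11.5, 12.9 and 2.94 CPM against 382, 262 and 352 CPM (-5.19, SE 0.69, adjusted p = 0.00273). ERMAP, an erythroid membrane protein, held 6.14, 10.7 and 4.20 CPM against 83.2, 74.8 and 65.3 CPM (-3.41, SE 0.55, adjusted p = 0.00493). In each of these the groups were separated, as in nearly all calls. BCAM, a laminin-binding blood group protein, was at -5.05 (adjusted p = 0.00633), and -5.74 without icefish replicate 2. CATA, catalase, held 68.1, 282 and 73.2 CPM in T. bernacchii and no read in C. hamatus, at least 173-fold lower, or 86.8-fold without T. bernacchii replicate 2. The adducins, which cap actin under the membrane, went opposite ways. ADDB had 2 reads in C. hamatus and 46.8, 25.7 and 13.3 CPM in T. bernacchii, a ratio of 134 (36.9 to 1111). It was 89.3 without icefish replicate 1, 222 without T. bernacchii replicate 3 and a bound of 31.6 without icefish replicate 3. ADDA was higher in C. hamatus at 329, 166 and 895 CPM against 9.88, 94.1 and 12.1 CPM (3.59, SE 1.07, adjusted p = 0.0417). ADDA lost its call without icefish replicate 1 (3.78) or 3 (2.70) or T. bernacchii replicate 1 (3.12) or 3 (3.16), and stood at 5.38 without T. bernacchii replicate 2. B3AT, the band 3 anion exchanger of the red cell, was not called, at 174, 227 and 317 CPM against 589.8, 394 and 212 CPM (-0.74, SE 0.51, adjusted p = 0.341). ANK1, 41, CAH1, XK and PIEZ1 were not called. The list summed to 926 to 1418 CPM in C. hamatus and 2438 to 4908 CPM in T. bernacchii, and with icefish replicate 1 alone 7 of 15 members were called lower and 0 higher.

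Iron handling split, with 5 members called higher and 5 lower of 18 tested (27.8% each), beside 14.1% and 10.4% of all mnemonics. The median log2 fold change was -0.52 and the mean 0.46, so the list had no single direction. Among the members that bring iron to cells, TFR1, the transferrin receptor, held 108, 69.9 and 50.8 CPM in C. hamatus and 539.6, 388 and 523 CPM in T. bernacchii (-2.66, SE 0.48, adjusted p = 0.00694). TRFE, transferrin, had 4 reads in all of C. hamatus and 36.4, 75.9 and 19.2 CPM in T. bernacchii (-6.99, adjusted p = 0.00678), with -6.36 without T. bernacchii replicate 2, and it was at least 48.4-fold lower without icefish replicate 3, which held those reads. The heme oxygenases HMOX (-2.16, adjusted p = 0.0271) and HMOX2 (-2.87, adjusted p = 0.0152), which break heme down, and CERU, the ferroxidase ceruloplasmin (-3.46, adjusted p = 0.0481), were lower. HMOX lost its call without icefish replicate 1 (-2.22) or 2 (-1.97) or T. bernacchii replicate 1 (-2.17) or 2 (-1.73), and CERU without any 1 library (-4.20 to -2.99). The members called higher included HEPC, the iron hormone hepcidin, at 5.90, 95.6 and 58.8 CPM against 1 read in T. bernacchii, a ratio of 835 (149 to 33021), and at least 59.5-fold without T. bernacchii replicate 3, which held that read. NRAM2, the divalent metal transporter, held 54.3, 289.8 and 255 CPM against 45.2, 27.4 and 48.2 CPM (2.31, adjusted p = 0.0379). Its lowest icefish library was only just above the highest T. bernacchii library, and its call was lost without any 1 library other than icefish replicate 1 (1.94 to 2.44). The ferric reductases STEA3 (4.12, adjusted p = 0.0251) and STEA4 (2.83, adjusted p = 0.0355) were higher, and STEA3 was not called without icefish replicate 1 (3.85) or T. bernacchii replicate 3 (3.67) and stood at 6.13 without T. bernacchii replicate 2. STEA4 was not called without icefish replicate 3 (1.58) or any 1 T. bernacchii library (2.57 to 3.02). PCBP2, an iron chaperone and RNA-binding protein, held 127, 172 and 272 CPM against 0, at least 273-fold higher. The ferritin FRIM (-0.23, adjusted p = 0.808) and the iron exporter S40A1 (1.27, adjusted p = 0.411) overlapped. Over the fits without 1 library, 2 to 4 members were called higher, the fewest without T. bernacchii replicate 3, and 3 to 5 lower. Keeping icefish replicate 1 alone, 1 of 20 members was called higher and 1 lower.

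In the TGF-beta and BMP pathway the list of ligands and antagonists, which also includes matrix proteins, had a higher sum in the icefish. Most of its members were not called one by one. The list summed to 2813, 2456 and 2596 CPM in C. hamatus and to 1007, 828 and 939.6 CPM in T. bernacchii, without overlap (exact permutation p = 0.1, the smallest possible). The members named below made up a small part of the icefish sums, so the sums are not a measure of ligand level. Of 12 tested members 4 (33.3%) were called higher and 0 lower, beside 14.1% and 10.4% of all mnemonics. The median log2 fold change was 1.67. BMP7, a bone morphogenetic protein, held 208, 128 and 57.9 CPM in C. hamatus and no read in T. bernacchii, at least 188-fold higher. PGS1, biglycan, a matrix proteoglycan that binds TGF-beta, held 26.5, 164 and 209 CPM against 10.4, 9.14 and 5.49 CPM (4.0, SE 0.81, adjusted p = 0.01). BMP2 was low in both species, at 11.3, 8.24 and 2.94 CPM against 0.520, 0.339 and 0.589 CPM (3.84, adjusted p = 0.0204). INHA, the inhibin alpha subunit, held 40.8, 27.2 and 23.1 CPM against 7.02, 0.677 and 0.981 CPM (3.39, adjusted p = 0.04). BMP2 lost its call without any 1 library other than icefish replicate 3, at log2 fold changes of 3.38 to 4.0, and INHA lost it without any 1 library other than T. bernacchii replicate 1, at 2.94 to 3.56, and stood at 5.05 without that one. TGFB1, the ligand TGF-beta-1, held 145, 162.998 and 60.9 CPM against 46.3, 77.5 and 42.5 CPM, overlapped and was not called (1.15, SE 0.53, adjusted p = 0.153). TGFB3 rested on icefish replicate 3, at 132 CPM against 5.90 and 5.73 CPM in the other icefish libraries, and was not called (3.10, adjusted p = 0.146). PGS1 belongs to the stroma list too, whose members were also higher in C. hamatus, and the part of stromal cells in these levels was not tested. Without icefish replicate 2 the list had 2 members higher and 1 lower. In the fit with icefish replicate 1 alone 1 of 13 members was called higher and 1 lower.

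Of the receptors of the pathway, 1 was called in each direction (14.3% each), near the 14.1% higher and 10.4% lower over all mnemonics. Among the 7 tested, BMR1B, a BMP type I receptor, was called higher at 20.1, 113 and 47.02 CPM against 13.8, 14.9 and 8.53 CPM (2.28, adjusted p = 0.0483). That call was lost without icefish replicate 2 (1.44, adjusted p = 0.201) or 3 and without each T. bernacchii library, at 2.05 to 2.42. RGMB, a BMP co-receptor, was called lower with 3 reads in C. hamatus and 10.9, 2.71 and 9.12 CPM in T. bernacchii, a ratio of 32.6 (10.9 to 160.0), and the ratio was 21.7 without icefish replicate 1 and 57.8 without icefish replicate 3. It too lost its call without icefish replicate 1 (-4.23) or 2 (-4.98) and without T. bernacchii replicate 1 (-4.48) or 3 (-4.57). TGFR2, the TGF-beta type II receptor, held 39.8, 42.6 and 18.1 CPM against 40.8, 53.5 and 50.5 CPM (-0.53, SE 0.50, adjusted p = 0.493). The other 4, TGBR3, ACVR1, ACVL1 and BMPR2, were not called, and with icefish replicate 1 alone 0 of 7 were called.

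The SMAD proteins and their regulators had 4 members higher and 1 lower of 16 tested, beside 14.1% higher and 10.4% lower over all mnemonics. The median log2 fold change was 1.14. Of the members called higher, SMAD9 and SKI had no read or only 2 reads in T. bernacchii. The direction of those calls was thus fixed in advance, and the rows of SMAD2 disagreed. The count of higher calls therefore gives no direction for the pathway. SMAD4, the partner shared by all receptor-activated SMADs, held 60.4, 56.2 and 199.8 CPM in C. hamatus and 2.08, 4.74 and 4.61 CPM in T. bernacchii (4.78, SE 0.75, adjusted p = 0.00441). Its libraries were separated by species, as in nearly all calls, and the value was 3.92 without icefish replicate 3. SMAD2, which carries the TGF-beta signal, held 157, 70.6 and 96.97 CPM against 8.58, 31.2 and 25.5 CPM (2.31, SE 0.61, adjusted p = 0.0268), and lost its call without icefish replicate 1 (1.91) or T. bernacchii replicate 1 (1.88) or 3 (2.46). Its rows were called in opposite directions. The zebrafish row SMAD2_DANRE held 152, 67.2 and 96.7 CPM against 0.524, 6.77 and 0.793 CPM (5.37, adjusted p = 0.00811), and the human row SMAD2_HUMAN held 4.16, 2.84 and 0.845 CPM against 8.12, 24.4 and 24.98 CPM (-2.87, adjusted p = 0.0475), so the summed call gives no single direction for SMAD2. SMAD9, which carries the BMP signal, held 21.4, 6.45 and 21.4 CPM against no read, at least 23.6-fold higher. SKI, a corepressor that binds SMADs, held 11.8, 5.37 and 20.6 CPM against 2 reads in T. bernacchii, a ratio of 118 (32.05 to 979.9). The ratio was 77.96 without icefish replicate 3, 46.4 without T. bernacchii replicate 3 and a bound of 19.2 without T. bernacchii replicate 1, which held both reads. CBP, a histone acetyltransferase recruited by SMADs, was lower at 33.7, 12.2 and 27.7 CPM against 118, 69.1 and 145 CPM (-2.17, SE 0.55, adjusted p = 0.0231), and lost its call without icefish replicate 2 (-1.84) or T. bernacchii replicate 1 (-2.19) or 3 (-1.93). The inhibitory SMAD7 (0.40, adjusted p = 0.699) and the BMP effector SMAD5 (-0.89, adjusted p = 0.318) overlapped, and SMAD1, SMAD3 and SMAD6 were not called. With icefish replicate 1 alone 1 of 18 members was called higher and 0 lower.

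Known targets of the pathway were called about as often as all mnemonics, with 3 higher (16.7%) and 2 lower (11.1%) of 18 tested beside 14.1% and 10.4%, and a median log2 fold change of 0.44. CO1A1, the collagen alpha-1(I) chain, held 4802, 839 and 1616 CPM against 86.9, 295 and 108 CPM (3.89, SE 0.86, adjusted p = 0.0134), CO1A2 stood at 3.42 (adjusted p = 0.014) and FINC, fibronectin, at 2.52 (adjusted p = 0.0152). Both collagens were highest in icefish replicate 1, without which they stood at 2.90 and 2.30, and both lost their call without T. bernacchii replicate 1 (3.55 and 3.36) or 3 (3.68 and 3.27), while CO1A1 stood at 4.63 without T. bernacchii replicate 2. FINC lost its call without the same T. bernacchii libraries (2.30 and 2.36), so that 0 targets were called higher without either, and 6 were without T. bernacchii replicate 2. ID3A, an inhibitor of DNA binding that BMP signals induce in mammalian cells, held 28.3, 13.97 and 13.4 CPM against 255, 162.5 and 169 CPM (-3.39, SE 0.53, adjusted p = 0.00432). ZEB2, a zinc finger repressor, held 3.19, 5.02 and 2.94 CPM against 33.3, 81.95 and 91.03 CPM (-4.21, SE 0.63, adjusted p = 0.004). PAI1, plasminogen activator inhibitor 1, held 4.18, 129.7 and 185 CPM against 8.32 to 11.5 CPM and was not called (3.43, adjusted p = 0.0534). The other 12, among them ID1, ID2, MYC and JUNB, were not called.

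**Figure D4:**
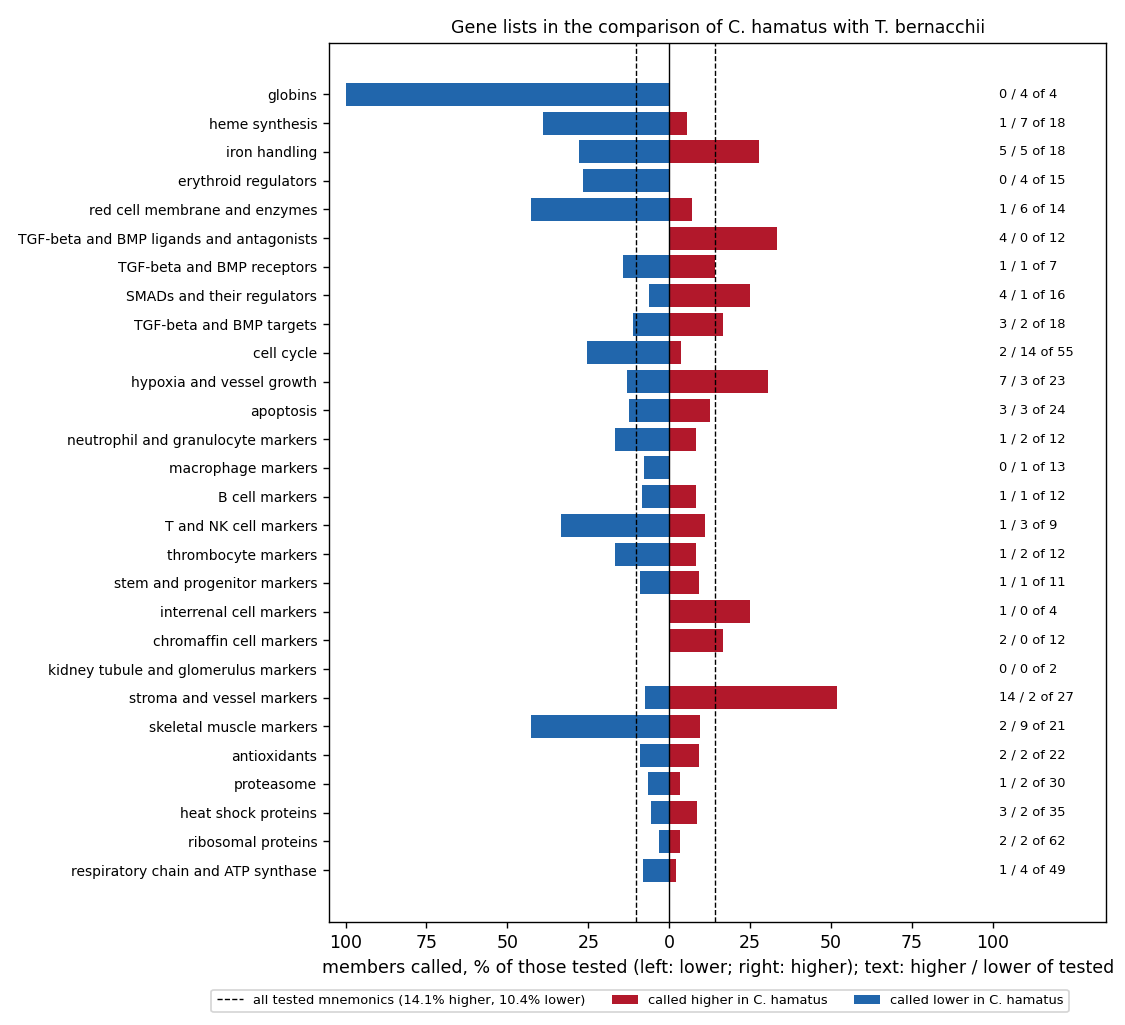
Share of the tested members of each of the 28 gene lists called lower (blue, to the left) and higher (red, to the right) in C. hamatus, in percent, with the counts of higher, lower and tested members at the right. The dashed lines mark the shares over all tested summed mnemonics, 14.1% higher and 10.4% lower. Stroma and vessel markers (14 of 27 higher) and globins (4 of 4 lower) lie far outside them. Red cell membrane and skeletal muscle (42.9% lower each) and heme synthesis (38.9% lower) are among other lists well outside. The globins entered the test through the T. bernacchii libraries alone. The other lists named here also include called members read only, or almost only, in a single species. The direction of such calls was fixed in advance.

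Of 55 cell cycle genes tested, 14 (25.5%) were called lower in the icefish and 2 (3.64%) higher, beside 10.4% and 14.1% of all mnemonics. The median log2 fold change was -1.57. The summed level of the list overlapped, at 2145 to 6463 CPM in C. hamatus and 4692 to 7280 CPM in T. bernacchii. TYSY, RFC5, PSF3 and SLD5 had no read in C. hamatus, so the direction of their calls was fixed in advance. TYSY, thymidylate synthase, which makes the thymidine nucleotide for DNA, held 119, 35.6 and 61.1 CPM in T. bernacchii, at least 88.5-fold lower in C. hamatus. RFC5, a subunit of the clamp loader, was at least 25.9-fold lower, and the GINS subunits PSF3 and SLD5 at least 22.3-fold and 20.5-fold lower. Among mitotic genes, PLK4, the kinase of centriole duplication, held 0, 0 and 1.26 CPM against 130.0, 65.4 and 128 CPM (-7.74, SE 1.13, adjusted p = 0.00377). NDC80, a kinetochore protein, held 0.246, 1.43 and 0.420 CPM against 29.4, 25.1 and 44.5 CPM (-5.60, SE 0.89, adjusted p = 0.0047). BUB3, of the spindle checkpoint, held 5.16, 6.09 and 2.10 CPM against 96.5, 59.9 and 97.02 CPM (-4.25, SE 0.61, adjusted p = 0.00352). The groups were separated for each, as in nearly all calls. Icefish replicate 3 held all PLK4 reads of that species, so that PLK4 was at least 119-fold lower without it. NDC80 stood at -6.52 without icefish replicate 2. The members called higher were CCND1, a cyclin of the G1 phase, at 19.2, 5.73 and 12.6 CPM against 1 read in T. bernacchii, a ratio of 225 (39.8 to 8948), and WEE1, a kinase that delays mitosis (4.04, SE 0.76, adjusted p = 0.00777). For CCND1 the ratio was 88.7 without T. bernacchii replicate 3 and a bound of 19.1 without T. bernacchii replicate 1, which held the read. PCNA, the replication clamp, overlapped and was not called, at 621, 82.4 and 129 CPM against 355, 232 and 365 CPM (-0.19, SE 0.75, adjusted p = 0.883). The count depended on the libraries: over the fits that left out 1 library it was 8 to 22 lower and 2 to 3 higher, with 22 lower without icefish replicate 1 and 8 without T. bernacchii replicate 1 or 3, and 11 of 61 lower with icefish replicate 1 alone. In a separate fit limited to features with at least 10 counts in each species, 3 of 52 members were called lower and 1 higher. That fit called 306 lower and 408 higher of all 7387 mnemonics.

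Of 27 stroma and vessel genes tested, 14 (51.9%) were called higher in C. hamatus and 2 (7.41%) lower. The shares over all mnemonics were 14.1% and 10.4%. These stroma and vessel genes had a median log2 fold change of 2.40. CO6A1 and EGFL7, with no T. bernacchii read, could only be called higher, and CO6A3, with few icefish reads, only lower. Their sum was 18066, 9496 and 10178 CPM in C. hamatus and 3865, 4868 and 3863 CPM in T. bernacchii, without overlap (exact permutation p = 0.1). CO6A1, the collagen alpha-1(VI) chain, held 959.9, 597 and 669 CPM against no read in T. bernacchii, at least 1065-fold higher. CO6A3, another chain of the same collagen, went the other way with 0, 0 and 1.26 CPM against 62.2, 44.4 and 60.03 CPM (-6.80, SE 1.15, adjusted p = 0.00574), and at least 61.3-fold lower without icefish replicate 3, which held its icefish reads. CO6A2, the remaining chain, was called higher (1.84, adjusted p = 0.0399), and lost its call without icefish replicate 1 (1.51) or 2 (1.88) or T. bernacchii replicate 1 (1.56) or 3 (1.68). The chains of 1 collagen thus differed in opposite directions. SPRC, the matrix protein osteonectin, held 733, 202 and 851 CPM against 32.5, 78.6 and 28.3 CPM (3.68, SE 0.73, adjusted p = 0.00937), and PGFRB, the PDGF receptor of mural cells, held 91.2, 162 and 259 CPM against 12.5, 26.8 and 9.81 CPM (3.39, SE 0.63, adjusted p = 0.00764). SPRC stood at 4.28 without T. bernacchii replicate 2. LUM, the proteoglycan lumican, was led by icefish replicate 1, at 518 CPM against 27.2 and 47.4 CPM (8.09, adjusted p = 0.0124), and stood at 5.57 without it, at 7.44 without T. bernacchii replicate 1 or 3 and at 10.30 without T. bernacchii replicate 2. CO4A1, of basement membranes, held 109, 321 and 113 CPM against 0, 4.40 and 0.0981 CPM (7.12, adjusted p = 0.0111), with 6.41 without icefish replicate 2 and 6.47, 10.93 and 6.39 without T. bernacchii replicates 1, 2 and 3. Of the endothelial members, EGFL7 had no T. bernacchii read and was at least 52.2-fold higher, whereas PECA1 (0.97, adjusted p = 0.172), the VEGF receptor VGFR2 (0.90, adjusted p = 0.176) and TIE1 (0.67, adjusted p = 0.313) were not called. TIMP2, a metalloproteinase inhibitor, was lower (-2.02, adjusted p = 0.0497), stood at -2.84 without icefish replicate 2 and was not called without any 1 of the other 5 libraries (-2.06 to -1.66). Without T. bernacchii replicate 1 or 3 the list had 8 members higher and 1 lower. With icefish replicate 1 alone, 7 of 28 were called higher and 2 lower.

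Genes of hypoxia and vessel growth had 7 members higher (30.4%) and 3 lower (13.04%) of 23 tested. The shares over all mnemonics were 14.1% and 10.4%, and the list's median log2 fold change was 1.19. BNIP3 and GTR3, with no or few T. bernacchii reads, entered the test through the C. hamatus libraries alone. The direction of those calls was thus fixed in advance. BNIP3, a mitophagy receptor induced by low oxygen in mammals, held 64.9, 46.6 and 68.4 CPM against no read, at least 86.04-fold higher. GTR3, the glucose transporter GLUT3, held 179, 1143 and 2196 CPM against 0, 0 and 1.08 CPM (11.13, SE 1.57, adjusted p = 0.00347). Its few T. bernacchii reads lay in replicate 3, and without that library it was at least 1306-fold higher. The log2 fold change was 10.25 without icefish replicate 3. GTR1, the transporter GLUT1, was 4.25 (adjusted p = 0.0134), and 5.48 without T. bernacchii replicate 2. VEGFA, the endothelial growth factor, held 11.1, 363 and 52.1 CPM against 10.1, 0.339 and 6.08 CPM (4.66, adjusted p = 0.0472). Its high value was in icefish replicate 2, the library with the most chromaffin and granulocyte markers. Without that library it was 2.49 (adjusted p = 0.211), without T. bernacchii replicates 1, 2 and 3 in turn it was 5.28, 4.12 and 4.70, and it was called in none of these. ANGL4, LDHA and NDRG1 were also called higher (2.48, 2.80 and 2.76), by margins that the loss of most single libraries ended. ANGL4 was called only without T. bernacchii replicate 2 (3.54, otherwise 2.05 to 2.74), LDHA only without T. bernacchii replicate 2 (3.93) or icefish replicate 1 (otherwise 2.20 to 2.88), and NDRG1 only without icefish replicate 1 or 2 (otherwise 1.34 to 2.94). ARNT, the partner of the hypoxia-inducible factors, was lower at 7.13, 12.5 and 2.52 CPM against 95.96, 71.5 and 39.5 CPM (-3.23, SE 0.72, adjusted p = 0.0135), and -3.83 without icefish replicate 2. The glycolytic enzyme ALDOA was lower at -3.57 (adjusted p = 0.0191), stood at -2.44 without T. bernacchii replicate 2 and was not called without icefish replicate 1 (-3.58) or 3 (-3.26). HIF1A itself overlapped (0.30, adjusted p = 0.694). The list had 3 members higher without T. bernacchii replicate 1 or 3 and 4 without icefish replicate 2. Keeping icefish replicate 1 alone, 2 of 23 were called higher and 0 lower.

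Of 12 granulocyte markers 1 was called higher (8.33%) and 2 lower (16.7%), together about the share over all mnemonics, and the median log2 fold change was 0.19 with a mean of -0.76. PERE, the peroxidase of eosinophils, held 857, 7594 and 1005 CPM in C. hamatus and 866, 7581 and 624 CPM in T. bernacchii, so that the spread between replicates was far above the difference between the species (0.06, adjusted p = 0.979). MMP9, a metalloproteinase of neutrophils, had no C. hamatus read and 87.1, 2077 and 58.2 CPM in T. bernacchii, at least 910.3-fold lower, and 89.3-fold without T. bernacchii replicate 2, the library high in PERE. LYSC, lysozyme, was higher (2.49, adjusted p = 0.0184), with its call lost without icefish replicate 2 (2.10) or T. bernacchii replicate 1 (2.13). Of 13 macrophage markers only IRF8 (7.69%, beside 10.4% of all mnemonics lower) was called, lower at -1.55 (adjusted p = 0.0391). IRF8 lost its call without any 1 library other than T. bernacchii replicate 2, at adjusted p = 0.0768 to 0.141. The summed macrophage markers overlapped, at 4269 to 12847 CPM and 6616 to 9373 CPM.

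B cell (8.33%) and stem and progenitor markers (9.09%) were called at the same share each way. Thrombocyte markers were called at 8.33% higher and 16.7% lower. Shares over all mnemonics were 14.1% higher and 10.4% lower. Among 12 B cell markers the adaptor BLNK was higher, with 80.1, 72.7 and 21.8 CPM against no read (at least 83.5-fold). The chemokine receptor CXCR5 was lower, with 2 icefish reads against 9.88, 8.13 and 8.83 CPM. The CXCR5 ratio was 52.00 (14.1 to 433), which was 34.6 without icefish replicate 1 and a bound of 9.88 without icefish replicate 3. Of 9 T and NK cell markers 3 were lower (33.3%, beside 10.4% of all mnemonics) and 1 higher (11.1%), with a median log2 fold change of -2.07. The summed level of that list overlapped, at 330 to 615 CPM in C. hamatus and 199 to 497 CPM in T. bernacchii. Most of each icefish sum was LCK, given below, so the overlap does not describe the other members. ZAP70, a kinase of the T cell receptor, held 0, 0.716 and 1.68 CPM against 43.9, 14.6 and 29.1 CPM (-5.12, adjusted p = 0.0143), and -6.42 without icefish replicate 3. PERF, perforin, held 0, 0 and 1.26 CPM against 36.9, 9.14 and 49.7 CPM (-6.02, adjusted p = 0.0152), and at least 35.3-fold lower without icefish replicate 3, which held its icefish reads. LCK, the Src-family kinase upstream of ZAP70, went the other way, at 513, 335 and 283 CPM against 90.2, 59.6 and 71.1 CPM (2.36, SE 0.46, adjusted p = 0.00881), so kinases of 1 pathway were called in opposite directions. Among 12 thrombocyte markers NFE2, given above, and THAS, thromboxane synthase (no icefish read, at least 8.63-fold lower), were lower, and GRP2, a Ras exchange factor of platelets, was higher at 446, 126 and 98.7 CPM against 7.54, 31.8 and 4.22 CPM (3.96, adjusted p = 0.02). GRP2 stood at 2.96 without icefish replicate 1 and at 5.26 without T. bernacchii replicate 2, and was not called without T. bernacchii replicate 1 (3.63) or 3 (3.52). Of 11 stem and progenitor markers MEIS1 was higher, at 72.2, 36.2 and 62.5 CPM against 0, 2.03 and 0.687 CPM (6.03, SE 1.05, adjusted p = 0.00616, with 5.44 and 6.98 without T. bernacchii replicates 1 and 2), and HHEX was lower, with no icefish read against 41.9, 20.7 and 29.4 CPM (at least 37.7-fold).

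The endocrine cells of the head kidney gave 3 calls, all higher in C. hamatus. Of 4 interrenal markers NCPR, the reductase that serves cytochromes P450, held 36.1, 70.6 and 2663 CPM against 3.90, 27.4 and 4.12 CPM (6.31, adjusted p = 0.0405). It was 2.20 without icefish replicate 3, the library that held STAR, and was not called there (adjusted p = 0.147), nor without T. bernacchii replicate 1 (5.88) or 3 (5.89), and was 7.82 without T. bernacchii replicate 2. CP11A, the first enzyme of steroid synthesis, held 14.7, 24.0 and 7976 CPM in C. hamatus and 22.01 to 32.8 CPM in T. bernacchii and was not called (6.64, adjusted p = 0.067). Of 12 chromaffin markers, SC6A2, the noradrenaline transporter, held 155, 1257 and 519 CPM against 81.7, 66.03 and 82.6 CPM (3.07, adjusted p = 0.0196), and GCH1, which makes the cofactor of tyrosine hydroxylase, held 18.7, 42.99 and 23.9 CPM against 0, 0 and 0.687 CPM (6.40, SE 1.2, adjusted p = 0.00778). SC6A2 stood at 2.13 without icefish replicate 2 and was not called without any 1 of the T. bernacchii libraries (2.96 to 3.11), and GCH1 was at least 31.8-fold higher without T. bernacchii replicate 3, which held its reads in that species. DOPO, dopamine beta-hydroxylase, and PNMT, which makes adrenaline, were at 0.491 and 0 CPM in icefish replicate 1 and reached 2826 and 4199 CPM in replicate 2, and neither was called (adjusted p = 0.134 and 0.181). Without icefish replicate 1, 8 of 13 chromaffin markers were called higher, in a fit that called 1073 of all 8203 mnemonics higher. Of kidney tubule and glomerulus markers 2 were tested and 0 called.

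Skeletal muscle genes were lower in C. hamatus at 9 (42.9%) of 21 tested and higher at 2 (9.52%), beside 10.4% and 14.1% of all mnemonics. The list's median log2 fold change was -4.0, yet its summed level overlapped, at 965 to 1465 CPM against 932 to 4504 CPM. That overlap rests on CASQ1, and without it, a choice made after the values were seen, the sums were 591, 748 and 444 CPM against 932, 4504 and 1414 CPM. TNNC2, fast troponin C, held 0.737, 0.358 and 0 CPM against 113, 257 and 129 CPM (-8.78, SE 0.97, adjusted p = 0.00189), with -9.99 without icefish replicate 1 and -8.12 without its replicate 3. KCRM, muscle creatine kinase, held 0, 0.358 and 4.20 CPM against 122, 706 and 127 CPM (-7.60, adjusted p = 0.00893), with -10.81 without icefish replicate 3 and -6.26 without T. bernacchii replicate 2. CASQ1, calsequestrin, went the other way, with 874, 217 and 923 CPM against 1 read, a ratio of 12514 (2245 to 494349), and at least 748-fold without T. bernacchii replicate 3, which held the read. MYPC2, a myosin-binding protein, had no icefish read and was at least 56.5-fold lower, or 17.8-fold without T. bernacchii replicate 2. TNNC2, MYPC2 and CASQ1, with no or few reads in 1 species, entered the test through the other species alone. T. bernacchii replicate 2 held the most muscle RNA, at 4504 CPM, and how much muscle each sample carried was not tested.

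Lists of the general cell machinery are set beside the shares over all mnemonics, 14.1% higher and 10.4% lower. Of 62 ribosomal proteins 2 were called higher and 2 lower (3.23% each). Of 49 respiratory chain and ATP synthase members 1 (2.04%) was higher and 4 (8.16%) lower. Of 35 heat shock proteins 3 (8.57%) were higher and 2 (5.71%) lower. Of 30 proteasome members 1 (3.33%) was higher and 2 (6.67%) lower. Of 22 antioxidants 2 were higher and 2 lower (9.09% each). The lower shares of the respiratory chain and antioxidant lists were thus near that of all mnemonics. Several of these calls were names read only, or almost only, in 1 species. RL5A, ribosomal protein L5 under an amphibian-type name, held 9417, 3533 and 2962 CPM in C. hamatus and 2.60, 1.02 and 0 CPM in T. bernacchii (12.21, adjusted p = 0.00274), with 11.50 without icefish replicate 1, 11.47 without T. bernacchii replicate 3 and 13.74 without T. bernacchii replicate 1. RL5, also named for ribosomal protein L5 and on a chicken row, held no icefish read and 511, 220.5 and 582 CPM in T. bernacchii, at least 538-fold lower. RS26 was nearly all in C. hamatus (10103, 1949.5 and 1644 CPM against 6 reads), and RL37 nearly all in T. bernacchii (4 reads against 1383, 2341 and 3472 CPM). The respiratory subunits COX7R, QCR7 and NDUB6 had no icefish read and were at least 205-fold, 179-fold and 110.1-fold lower. Antioxidant NQO1, a quinone reductase, held 15.7, 137 and 37.4 CPM against 2 reads, a ratio of 456 (126 to 3774), which was 228 without icefish replicate 2 and 742 without T. bernacchii replicate 2. GSH0, the regulatory subunit of glutathione synthesis, held 1.23, 1.07 and 0.840 CPM against 53.3, 43.3 and 54.5 CPM (-5.56, SE 0.62, adjusted p = 0.00189). GPX1, glutathione peroxidase, was 1.96 (adjusted p = 0.029) and lost its call without any 1 library other than icefish replicate 2, at 1.73 to 2.27. The immunoproteasome members PSB8 (-1.55) and PSME1 (-1.78) were lower and the constitutive subunit PSB7 (2.18) was higher. PSB8 was not called without any 1 library other than icefish replicate 1 (-1.69 to -1.42), PSME1 without any other than T. bernacchii replicate 2 (-1.90 to -1.64), and PSB7 without T. bernacchii replicate 1 (2.03) or 3 (2.13).

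Of 24 apoptosis genes tested 3 were called higher and 3 lower, 12.5% each way, which is near the share over all mnemonics. CASP6, an executioner caspase, had no icefish read and 257, 149 and 249 CPM in T. bernacchii, at least 268-fold lower. CASP8, the initiator caspase of death receptors, was higher at 52.3, 28.3 and 36.5 CPM against 1.30, 0.677 and 0.785 CPM (5.37, SE 0.71, adjusted p = 0.00273). MDM2, which holds p53 down, had no icefish read and was at least 34.8-fold lower (21.2-fold without T. bernacchii replicate 2), and DFFA, the inhibitor of the apoptotic nuclease, had no T. bernacchii read and was at least 14.8-fold higher.

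Among mnemonics with at least 10 counts in each species and a mean of 100 or more in the higher one, the largest called differences on the higher side were those of RL5A and GTR3, both given above, followed by S1PR3, ADA28, ITIH3, PI42A, NR1AA, IEX1, HDDC2 and ZHX2. ZHX2, a homeobox repressor, had replicates close together, at 275, 228 and 188 CPM against 0.520, 1.35 and 1.67 CPM (7.53, SE 0.65, adjusted p = 0.00178), and no left-out library ended its call or moved it by more than 1.5-fold. S1PR3, a receptor of sphingosine 1-phosphate, held 142, 250.1 and 1062 CPM against 0, 2.03 and 0.589 CPM (9.21, adjusted p = 0.004), with 7.92 without icefish replicate 3 and 8.61 and 10.25 without T. bernacchii replicates 1 and 2. ITIH3, an inter-alpha-trypsin inhibitor chain, rested on icefish replicate 3, at 2355 CPM against 2.46 and 77.7 CPM in the other icefish libraries. Without it the value was 3.95 (adjusted p = 0.0917), and the call was also lost without T. bernacchii replicates 1 (7.77), 2 (8.0) and 3 (9.74). NR1AA and ADA28 rested on icefish replicate 2, with 5530.5 CPM against 216 and 61.7, and 594 CPM against 12.8 and 95.3, and without it they stood at 4.08 (from 7.87) and 6.31 (from 8.43). NR1AA was not called without T. bernacchii replicate 1 (7.53) or 3 (7.83).

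Under the same limits the lower side included KCRM, KLF1 and HEM0, members of the lists above, and EPD, WDR65, PVRL1, I2B2B, ACOT5 and CHD3. I2B2B had the highest level of them, at 34.6, 50.9 and 22.2 CPM in C. hamatus and 3931, 3536 and 5030.5 CPM in T. bernacchii (-6.86, SE 0.65, adjusted p = 0.00178). Its 6 libraries fell into 2 tight groups, and no left-out library moved the value by more than 1.5-fold. EPD, ependymin, a secreted glycoprotein, held 0, 4.30 and 2.10 CPM against 274, 827 and 404 CPM (-7.91, adjusted p = 0.00436), with -8.82 without icefish replicate 2. PVRL1, the adhesion protein nectin-1, was led by T. bernacchii replicate 1 at 634 CPM against 70.8 and 144 CPM in the others, and stood at -6.93 with it and -5.60 without it. ACOT5 and CHD3 stood at -6.66 and -6.39, and at -7.41 and -7.90 without icefish replicate 3.

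Some highly expressed names had reads in a single species. Those of C. hamatus were the immunoglobulin light chain constant regions IGKC and LAC6, CO6A1, the translocon subunit SC61G (569, 313 and 447 CPM, at least 636-fold higher), NATTL, a natterin-like protein (at least 459.7-fold), and MUC18, an adhesion protein of vessels (212, 386 and 322 CPM, at least 439.9-fold). Those of T. bernacchii were HBA, HBB, HMR1, an MHC class I-related protein (7735, 5526 and 2346 CPM, at least 6392-fold lower in C. hamatus), FIBB, the fibrinogen beta chain (786, 854 and 2189.8 CPM, at least 1569-fold, or 1008-fold without T. bernacchii replicate 3), MMP9 and LEC (1115, 299 and 753 CPM, at least 888-fold). Of the rows called lower, 289 (32.1%) had no C. hamatus read, and for 50 of those the same mnemonic was read in C. hamatus on another row. Of the rows called higher, 229 (19.4%) had no T. bernacchii read, and for 39 of those the mnemonic was read there on another row. Rows with no read in the other species took 3.91% to 5.67% of the C. hamatus libraries and 10.5% to 16.8% of the T. bernacchii libraries, whose share includes the globins. After summing, 189 of the mnemonics called higher (17.4%) and 237 of those called lower (29.5%) were still at 0 in the other species.

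Some of the most abundant names were summed with others of like name, and whether such names are entries of the same protein was not tested. IGKC held 49437, 20417 and 13689 CPM in C. hamatus and none in T. bernacchii, at least 39966-fold higher, or 24474-fold without icefish replicate 1. LAC6 held 11858, 1711 and 3106 CPM against none and was at least 7977-fold higher, or 3456-fold without icefish replicate 1, which led it. KACB, a kappa constant region on a rat row, held 75814, 20019 and 10716 CPM against 3715, 1579.8 and 3787 CPM (3.55, SE 0.89, adjusted p = 0.0219). It stood at 2.30 without icefish replicate 1, and its call was lost without T. bernacchii replicate 1 (3.65), 2 (3.24) or 3 (3.75). KV401, a kappa variable region, was not called and went the other way, at 28096, 19759 and 4408 CPM against 87121, 33856 and 88431 CPM (-2.0, adjusted p = 0.111). A sum over these 4 light chain names and LV302, chosen after the values were seen, was 89008 ± 71023 CPM in C. hamatus and 72849 ± 32393 CPM in T. bernacchii (SD, n = 3 each, exact permutation p = 0.9). The constant regions alone, KACB, IGKC and LAC6, also chosen after the values were seen, summed to 68923 ± 59503 CPM and 3027 ± 1254 CPM. IGKC and LAC6 were named for having no T. bernacchii read, so a test of this sum would carry no weight. The names RL5 and RL5A together, likewise chosen after the values were seen, were 5304 ± 3574 CPM and 439 ± 191 CPM. Joining these names left C. hamatus higher. ACTB, beta-actin, held 191, 1718 and 71.8 CPM against 21271, 24231 and 19718 CPM (-5.04, adjusted p = 0.0191), and -7.36 without icefish replicate 2. Adding ACTC and ACTS, a choice also made after the values were seen, left the sum at 943 ± 990 CPM against 21906 ± 2355 CPM. Any other actin names were not added, so this sum is not a measure of total actin. The other names among the 8 highest in either species, PRPS2, RS6, GBLP, RSSA, RS8, RS3A, EF1A and HG2A, were not called, and EF1A, the elongation factor, was nearly equal at 6578 ± 4287 CPM and 6624 ± 1369 CPM (-0.01, SE 0.60, adjusted p = 0.993).

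Summing rows changed part of the calls. In the 6 libraries 1171 mnemonics had reads on 2 or more rows, and 363 of these had at least 1 row called. For 204 the called rows were all higher, for 136 all lower, and for 23 they went in opposite directions. Of those with 1 direction, 211 kept the call after summing, 129 lost it and 0 reversed it. Of the 23 with opposite rows, 1, SMAD2, was called higher after summing, 3 lower and 19 were not called, and 18 mnemonics gained a call that none of their rows had.

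**Figure D5:**
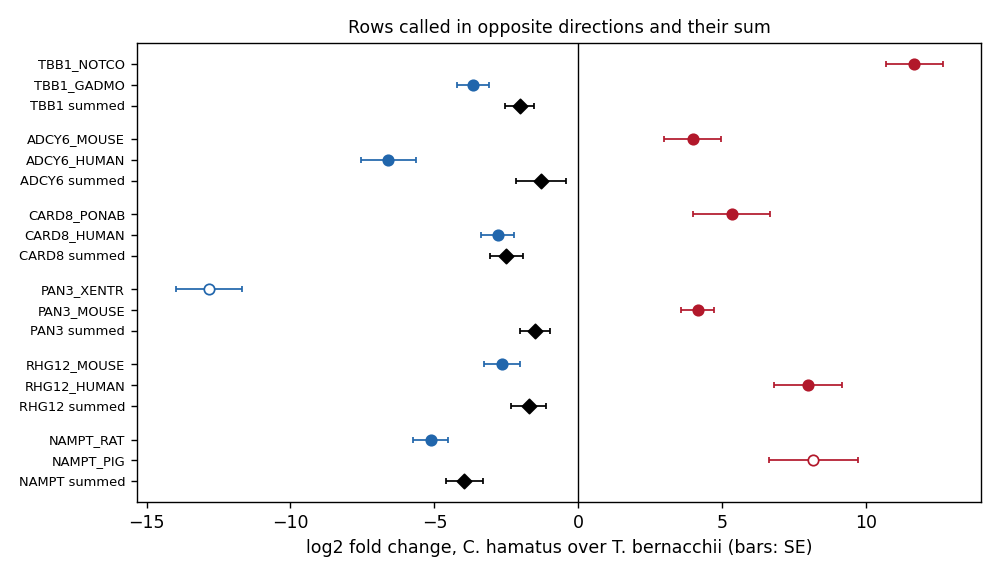
Log2 fold change of C. hamatus over T. bernacchii for the tested rows and the sum of the 6 mnemonics with the highest total counts among those with rows called in opposite directions. Red and blue circles are rows with a positive and a negative value, whether called or not, black diamonds are the sum and bars the SE. Open circles are rows with no read in 1 species, whose fitted value depends on the prior count, and every sum lies between its rows on the lower side.

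These 6 mnemonics differed in how the rows weighed in the sum. TBB1, a beta-tubulin, had 711, 288 and 313 CPM in C. hamatus on a row coded for the Antarctic fish Notothenia coriiceps, against 2 reads in T. bernacchii, a ratio of 3765 (1042 to 31094). On its Atlantic cod row it had 136, 249 and 246 CPM in C. hamatus and 2922, 1749 and 3364 CPM in T. bernacchii (-3.67, SE 0.56, adjusted p = 0.0038). The sum was lower, at 851, 541 and 555 CPM against 2901, 1749 and 3330.0 CPM (-2.03, adjusted p = 0.0207), and that call was lost without icefish replicate 2 (-1.91) or 3 (-1.93) or T. bernacchii replicate 1 (-2.04) or 3 (-1.84). ADCY6, an adenylate cyclase, was at -6.60 on its human row and 3.97 on its mouse row, and its sum was not called (-1.30, adjusted p = 0.317). PAN3, of the poly(A) nuclease, had no icefish read on a frog row that was at least 238.2-fold lower and was at 4.15 on its mouse row, and its sum was not called (-1.52, adjusted p = 0.0664). RHG12, a GTPase-activating protein, was at -2.66 on a mouse row and had 2 T. bernacchii reads on a human row (ratio 259, 71.1 to 2144), with a sum at -1.73 (adjusted p = 0.0704). For CARD8, an inflammasome protein, the human row at -2.80 outweighed the orangutan row at 5.33, and the sum was called lower (-2.49, adjusted p = 0.0142, and -3.09 without icefish replicate 2). NAMPT, an enzyme of NAD synthesis, was at -5.13 on its rat row and at least 10.9-fold higher on its pig row, with a sum called lower (-3.96, adjusted p = 0.0049, and -4.67 without icefish replicate 2).

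A called sum can also rest on 1 row. COX5B, a subunit of cytochrome c oxidase, was called higher after summing, at 136, 168 and 594 CPM against 60.3, 61.3 and 78.2 CPM (2.17, adjusted p = 0.0411). Its bovine row had reads in C. hamatus alone, at least 328-fold higher, while its pig row was equal within error, at 73.6, 79.3 and 59.98 CPM against 60.8, 61.3 and 78.99 CPM (0.08, SE 0.41, adjusted p = 0.911). The sum lost its call without icefish replicate 3 (1.19) and without each T. bernacchii library (2.05 to 2.30). HEM0, KLF1, TAL1, NFE2 and SMAD4 had 1 row each, so summing left them as they were, and each was called whichever 1 library was left out.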

How the data were processed

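Raw read counts, without normalization, were used as the authors deposited them. Per the labels' protocols, total RNA from frozen tissue was extracted with Trizol and made into Illumina TruSeq libraries. Which aligner, reference and counter made the table is not stated in the sources used here. Rows of the 6 libraries, and sums over rows with the same mnemonic, were filtered with filterByExpr by species, given TMM factors and modelled in edgeR 4.0.16 under R 4.3.3 (robust quasi-likelihood fit, species as the only factor). Calls were at a Benjamini-Hochberg adjusted p under 0.05 over all features tested, 8086 rows or 7690 mnemonics. The printed SE divides a log2 difference by the square root of its F statistic, and is approximate for features near 0. The fit was tested on simulated data.

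Where a species had no read, the fold is a bound against a floor of 3 counts per library, a mean of 0.814 CPM in C. hamatus and 0.697 CPM in T. bernacchii. A species with 1 to 3 reads in all is given by a ratio scaled for depth, with the 95% exact binomial bounds. These bounds and floors reflect counting error alone. With a library left out, such folds were recomputed with the same library factors, as a bound where no read was then left. Fitted values with only a few reads left depend on the prior count. Exact permutation tests (two-sided) used scipy 1.17.1, and figures matplotlib 3.10.9.

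The members and the 28 lists were chosen with earlier results of these data known. Genes named are, on summed mnemonics, the 10 highest and 10 lowest fold changes among called mnemonics with at least 10 counts in each species and 100 or more on average in the higher one, the 6 most abundant called per direction with no read in 1 species, the 8 most abundant in each species, up to 4 called members per list with the largest change, all tested members of the globin, heme and erythroid regulator lists, and the 6 mnemonics with the most counts among those with rows called in opposite directions. Other list members were named after their values were seen. Some genes that the rule names are not reported here. Alternatives were other scalings, filters, tests and summing rules, all 9 libraries, DESeq2 1.42.0, a replicate block and each library left out. No reference was used, so no sequences or coordinates are given.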

Additional observations from a re-analysis of the deposited data

How the results depend on the processing

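No call that an alternative shared with the reported fit changed direction. Against 2080 rows and 1891 summed mnemonics called, the count was 757 rows (435 higher, 322 lower) and 714 mnemonics (408 higher, 306 lower) when only features with at least 10 counts in each species were fitted. It was 797 rows (318 higher, 479 lower) and 574 mnemonics (215 higher, 359 lower) with C. hamatus replicate 1 as the only icefish library, the setting in which the share of higher calls fell to 37.5% of mnemonics from 57.5%. Leaving out 1 library gave 1502 to 2545 rows (839 to 1599 higher, 652 to 994 lower) and 1259 to 2266 mnemonics (708 to 1425 higher, 551 to 875 lower). DESeq2's Wald test called 2551 mnemonics, a fit on all 9 libraries 2558, no filter 1947, at least 50 counts in 3 libraries 1300, a test against a fold of 2 1452, the highest row of each mnemonic 1936, and mnemonics with a single row 1657. With replicate number as a block, 1957 rows and 1700 mnemonics were called, but same-numbered libraries of the 2 species shared little (correlations of deviations 0.0198, 0.231 and 0.0498) and are of different species, so the numbers do not pair them. The median log2 fold change of all mnemonics moved by over 0.1 with no filter (0.22), without the 20 highest features (-0.077), without T. bernacchii replicate 2 (0.23) and with C. hamatus replicate 1 alone (-0.29). Reversed values with C. hamatus replicate 1 alone were -0.12 for ITIH3, 0.13 for RS3A, 0.71 for EF1A, -0.12 for HEM1, -0.16 for S2539, -0.064 for HEBP1, -0.38 for STA5B and -0.13 for SC23B. As 1 library was left out, log2 fold changes of both signs ran from -0.13 to 1.2 for GBLP, -0.69 to 0.64 for RSSA, -0.71 to 1.0 for RS8, -0.71 to 0.31 for EF1A, -1.49 to 0.49 for HEM3, -0.14 to 0.26 for S2539, -0.23 to 1.90 for HEBP1, -0.25 to 0.19 for STA5B and -0.21 to 0.52 for SC23B. Without the 20 highest features, S2539 was -0.041, STA5B -0.13 and SC23B -0.041. EF1A was 0.030 with upper-quartile factors, 0.0037 with no filter and 0.039 with the stricter filter, STA5B -0.00496 with 10 counts in each species and -0.034 with 9 libraries, and RSSA -0.040 under the block. Of these ITIH3 alone was called in the reported fit, and the cause was not tested. Differences under about 2.57-fold were below what 3 libraries per species resolved here.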
